A study of Mus musculus with 18 samples.

Results

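Oxidative phosphorylation couples the oxidation of nutrients to the making of ATP in the inner mitochondrial membrane. Complexes I and II pass electrons to coenzyme Q, complex III passes them on to cytochrome c, complex IV reduces oxygen, and complex V, the ATP synthase, uses the proton gradient that complexes I, III and IV build. All subunits of complex II and most of those of the others are encoded in the nucleus, while the core subunits of complexes I, III, IV and V that the mitochondrial genome kept are transcribed inside the organelle, by a polymerase of its own, as long transcripts that are cut into single mRNAs. In B cells the pathway is known to be engaged when the antigen receptor is stimulated. TFEB is a transcription factor of lysosome and autophagy genes that binds E-box-like sites.

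The genes described here were all protein-coding genes of the count tables whose symbol began with Nduf, Uqcr, Cox4i, Cox5, Cox6, Cox7, Cox8 or Atp5, the genes Sdha to Sdhd, and the protein-coding genes of the mitochondrial genome. The rule used names only and no measured value. It found 111 of 55487 genes, 98 nuclear and 13 mitochondrial. The nuclear genes comprised 38 subunits of complex I, 8 complex I assembly factors (Ndufaf genes), 4 subunits of complex II, 8 genes of complex III, 21 of complex IV (Ndufa4 and Ndufa4l2 among them, since the Ndufa4 protein is now assigned there) and 19 of complex V. After removal of genes with few counts, 15318 genes were tested, of which 90 were nuclear and 7 mitochondrial members.

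RNA was sequenced from WEHI-231 cells, a mouse immature B cell lymphoma line, in 9 groups of 2 libraries, 18 in all. Parental cells (labelled wt) and 2 TFEB KO lines, #A-59 and #B-20, were left unstimulated (0 h) or were treated for 6 or 18 h with F(ab')2 fragments of an antibody to IgM at 10 µg/ml, which engages the antigen receptor. Each KO line was 1 clone made with CRISPR/Cas9, so a difference from parental cells cannot be told apart from a difference between clones of the line, and the labels do not say which exon was targeted in which clone. The study describes the replicates as independent experiments. The p-values use the spread between the 2 libraries of a group, estimated jointly over all 9 groups. They do not measure the spread of each group by itself. All groups shared the same medium with fetal bovine serum.

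Library totals lay between 11223588 and 29655262 counts. Tfeb itself was present at 79.2 to 99.9 CPM (counts scaled to an equal library total) in the parental libraries, 25.5 to 40.5 in A-59 and 34.2 to 54.1 in B-20, and gene counts do not show whether the remaining transcript is intact. The 7 B cell markers summed to 5954 to 12450 CPM in every library, whereas T cell, erythroid and fibroblast markers summed to at most 0.675 CPM. The 4 macrophage markers summed to 1.84 to 9.01 CPM in parental cells, 7.75 to 27.8 in A-59 and 2.71 to 7.05 in B-20. The highest sums came from Itgam, which reached 26.3 CPM. Adgre1, Csf1r and Lyz2 reached at most 1.33, 2.16 and 0.0653 CPM in any library. Whether RNA of other cells had a part in the results was not tested. Several libraries stood apart. The A-59 6 h libraries differed from each other in the genes described here by a median of 0.24 on the log2 scale for nuclear and -0.64 for mitochondrial members (replicate 1 minus replicate 2), and B-20 6 h replicate 2 carried 0.464% of its counts on mitochondrial ribosomal RNA, against 0.046 to 0.0839% in parental libraries. In the comparison of B-20 with parental cells, log2 fold changes of all tested genes were lower with higher GC content of the transcript at 0 h (Spearman's rho -0.35) and 6 h (rho -0.27) but hardly at 18 h (rho -0.06), as a description across genes. Opposite trends were seen for A-59 against parental cells at 6 h (rho 0.19). The A-59 response at 6 h (rho 0.23) and its difference from the parental response (rho 0.23) showed them too. So did the B-20 response at 18 h (rho 0.22) and its difference from the parental response (rho 0.29). The 7 mitochondrial genes tested had 34.1 to 39.9% GC and the nuclear members 39.5 to 62.8%, so the classes hardly overlapped in GC content. A trend between the clones is given with that comparison.

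How much of each gene the counts can see depends on how many of its short reads occur nowhere else in the genome. Every 50-base window of each member's main transcript was therefore searched for in the mouse genome (GRCm39, a later build than the GRCm38 of the files). For mt-Co2, mt-Co3, mt-Atp6, mt-Atp8, mt-Nd3 and mt-Nd4l, which encode subunits of complexes IV, V and I, 99 to 100% of windows had a further copy, and all 6 were listed at 0 counts in all 18 libraries. A 0 there is no statement about expression, since featureCounts by default leaves out reads that match several places (the options used are not given in the sources used here). Both kinds of window are shown by 1 example each, the mt-Co2 window (bases 318 to 367 of its transcript) with 1 copy each on chromosomes 1, 2 and M, and the mt-Cytb window (bases 548 to 597) found on chromosome M alone.
mt-Co2: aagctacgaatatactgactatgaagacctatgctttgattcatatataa
mt-Cytb: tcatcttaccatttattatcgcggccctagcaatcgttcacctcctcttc

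Of the 7 mitochondrial genes that could be counted, mt-Cytb, mt-Nd1 and mt-Nd6 had no window elsewhere, mt-Nd5 had 7.6% and mt-Nd2 8.3%, but mt-Co1 had 51.1% and mt-Nd4 62.2%. Most of the mitochondrial signal below thus comes from complexes I, III and IV, and none of it from complex V. Counts on annotated nuclear copies of mitochondrial genes were 0 to 3 per library for 4 of 5 such pseudogenes and 49 to 265 for Gm28438. If reads with several matching places were left out, a read shared with a nuclear copy would be counted in neither place. These counts therefore cannot show how many reads came from nuclear copies. Among nuclear members, 82 had under 20% of windows elsewhere and a median level of 59.2 CPM per kb of transcript, 9 had 20 to 50% and a median of 27.4, and 7 had 50 to 98% and a median of 9.82. The last band held Atp5mc2 (88.4%), Atp5mc1 (84.4%), Ndufs5 (75.4%), Cox7c (71.5%), Atp5mg (68.7%), Uqcrb (58.7%) and Cox5b-ps (64.5%), whose levels are understated if reads with several matching places were left out. Such a loss would take the same part of a gene in every library.

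**Figure D1:**
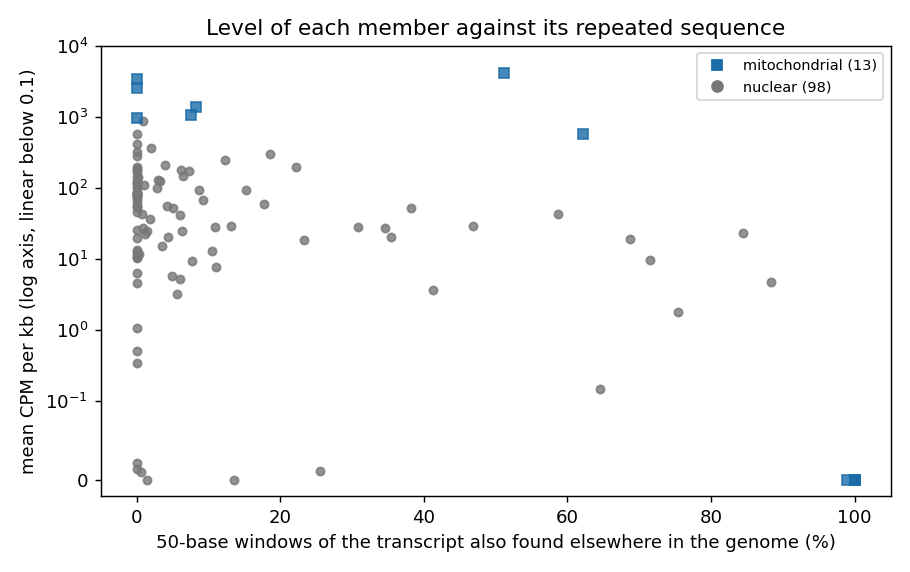
Each point is 1 of the 111 genes, with the percent of its 50-base windows that also occur elsewhere in the genome on the horizontal axis and its mean level over 18 libraries in CPM per kb on the vertical axis (log scale, linear below 0.1); squares are the 13 mitochondrial and circles the 98 nuclear genes. The 6 mitochondrial genes with 99 to 100% of windows elsewhere lie at 0, while the other 7 lie above nearly every nuclear gene.

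The mitochondrial genes were counted at far higher levels per length than their nuclear partners. Median levels over 18 libraries were 1388 CPM per kb for the 7 mitochondrial genes, 129.8 for complex IV, 87.8 for complex V, 70.2 for complex III, 62.6 for complex II, 54.1 for complex I and 8.37 for the complex I assembly factors. Within the classes the levels spread widely, from 0.504 to 418 CPM per kb in complex IV and from 1.84 to 199 in complex I, and annotated transcript lengths limit their precision. mt-Co1, the catalytic subunit of complex IV, took 36.3% of mitochondrial counts, mt-Cytb, the cytochrome b of complex III, 22.8%, and the complex I subunits mt-Nd1, mt-Nd5, mt-Nd2, mt-Nd4 and mt-Nd6 took 13.9, 11.2, 8.33, 4.59 and 2.85%. mt-Nd6 is read from the other strand and overlaps mt-Nd5 at its end. The libraries did not mark strand, so reads of the 2 genes cannot be told apart in the overlap. Along the whole of mt-Nd6, reads from transcripts of the opposite strand cannot be told apart from its own either. Among nuclear counts, Atp5f1b and Atp5f1a, the β and α subunits of the ATP synthase head, took 15.6 and 13.3%.

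Where complex IV or complex V has tissue variants of a subunit, the widely expressed variant dominated. Cox4i1 was at 418 CPM per kb while Cox4i2, the lung variant, never exceeded 2 counts. Cox6a1 stood at 246 CPM per kb against 1.08 for the muscle variant Cox6a2, and Cox6b1 at 364 while the testis variant Cox6b2 had 0 to 11 counts per library. Cox8a stood at 298 CPM per kb, whereas Cox8b reached at most 3 counts and Cox8c at most 2, and Cox7b stood at 148 with no count for Cox7b2. Ndufa4 was at 213 CPM per kb and its paralogue Ndufa4l2 at 0.504. Cox7a2 stood at 125 CPM per kb, with its heart and muscle variant Cox7a1 at a measurable 25.8 and Cox7a2l at 29.8. Among the c-ring genes of the ATP synthase Atp5mc3 (325) exceeded Atp5mc1 (23.4) and Atp5mc2 (4.73), the latter pair being those with the most windows elsewhere. The 8 nuclear members left untested were Cox4i2, Cox6b2, Cox7b2, Cox8b, Cox8c, Ndufb11b, Cox5b-ps and a second Ensembl entry of Atp5po, with at most 11 counts in any library.

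The share of all counts that fell on mitochondrial and on nuclear members was compared across genotypes and times. The values are shares, so a change in total RNA per cell was not measured, and in bulk RNA fewer cells of a type and less RNA per cell cannot be told apart. In unstimulated cells both shares were close between genotypes. Mitochondrial genes took 1.74 and 1.63% of counts in the parental libraries, 1.47 and 1.77% in A-59, and 1.85 and 1.64% in B-20. Nuclear members took 1.12 and 1.08%, 1.06 and 1.03%, and 1.10 and 1.14%. The groups overlapped for the mitochondrial share, and their means differed by less than the spread between A-59 replicates (1.62% ± 0.213, SD, n = 2). For the nuclear share both A-59 libraries lay slightly below all libraries of the other genotypes, while parental cells and B-20 overlapped.

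At 18 h the nuclear share was lower than at 0 h in each genotype, with no overlap between the libraries of the same genotype. The parental libraries had 0.973 and 0.997%, those of A-59 0.794 and 0.886%, and those of B-20 1.01 and 1.05%. Atp5f1b and Atp5f1a took 15.6 and 13.3% of nuclear counts over the series, and neither the share nor the ratio below was taken without them. The mitochondrial share moved differently by genotype. In parental cells it was 1.98 and 1.92%, above both 0 h libraries, in A-59 1.91 and 1.86%, also above both, but in B-20 1.52 and 1.75%, overlapping those at 0 h. The separation rested on mt-Co1: with that gene left out, the shares were 1.20 and 1.09% at 0 h against 1.25 and 1.19% at 18 h for parental cells and 0.941 and 1.12% against 1.09 and 1.09% for A-59, overlapping in both.

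The log2 ratio of the mitochondrial to the nuclear share shows both movements at once. In parental cells it was 0.61 ± 0.03 (SD, n = 2) at 0 h, 0.63 ± 0.01 at 6 h and 0.98 ± 0.05 at 18 h. In A-59 it was 0.63 ± 0.23, 0.31 ± 0.61 and 1.17 ± 0.14, where the large SD at 6 h came from -0.12 in replicate 1 against 0.74 in replicate 2. In B-20 it was 0.64 ± 0.16, 0.61 ± 0.14 and 0.66 ± 0.10, so the ratio at 18 h lay within the range seen at 0 and 6 h. With mt-Co1 left out, the ratios were 0.09 and 0.00 at 0 h against 0.36 and 0.26 at 18 h for the parental line and -0.18 and 0.13 against 0.45 and 0.30 for A-59, still without overlap. All ratios are given without a test, because the score sums over the chosen genes. The 95% Wilson interval of a single share was narrow, 1.21 to 1.22% for A-59 6 h replicate 1, and covers counting error only, which is far smaller than the spread between libraries.

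**Figure D2:**
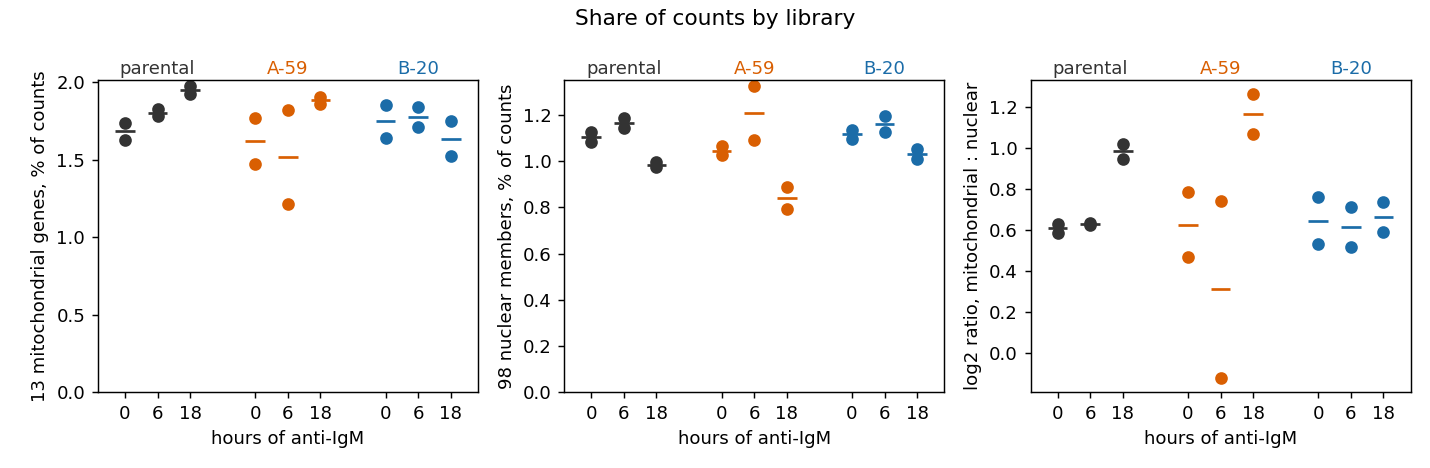
Points are the 18 libraries and bars the means of 2, by genotype and hours of anti-IgM; the panels give the percent of counts on mitochondrial members, the percent on nuclear members, and the log2 ratio of these shares. The ratio at 18 h is 0.95 to 1.02 in parental cells and 1.07 to 1.26 in A-59, but 0.59 to 0.73 in B-20, and the A-59 6 h libraries lie far apart.

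The next comparison asked whether loss of TFEB changed these genes at each time. A gene was called when its Benjamini-Hochberg adjusted p, from the edgeR quasi-likelihood test over all 15318 genes, was below 0.01. It was a differentially expressed gene (DEG), after the threshold in the study's methods, when in addition its log2 fold change exceeded 1 in either direction. In unstimulated cells no member was called in either clone. For A-59 the nuclear median was -0.01 and the mitochondrial median -0.10, beside 5.09% of all genes called higher and 4.47% called lower. For B-20 the medians were 0.04 and -0.06, beside 4.03% higher and 6.66% lower. At an unadjusted p under 0.05, edgeR gave 5 nuclear members for A-59 and 12 for B-20 and no mitochondrial member. Of all 15318 genes, 4003 and 4553 passed that p. DESeq2 also called no member.

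At 6 h, A-59 differed from parental cells in 4 of 90 nuclear members, 2 higher and 2 lower, in a comparison where 11.4% of all genes were called higher, 11.3% lower and 7.91% were DEGs. Ndufaf4 and Ndufaf6, which act in the assembly of complex I, were lower, by log2 fold changes of -1.51 ± 0.234 (SE, adjusted p = 0.000129) and -0.52 (adjusted p = 0.00439). Ndufb1, an accessory subunit of complex I, and Cox7a2l, which joins complexes III and IV into supercomplexes, were higher by 0.52 (adjusted p = 0.00273) and 0.34 (adjusted p = 0.00783). No mitochondrial member was called (2 at an unadjusted p under 0.05, beside 6522 of all 15318 genes, and 0 by DESeq2), with a median of -0.33. These values lean on the A-59 libraries that stood apart: without A-59 6 h replicate 2, 27 nuclear and 4 mitochondrial members were called, and without replicate 1, 2 and 0. The mitochondrial median was then -0.75 and 0.01. Ndufaf6 lost its call in 4 of 12 alternatives, among them without A-59 replicate 2 (adjusted p = 0.0304) or either parental replicate (0.0554 and 0.0126). Cox7a2l lost it in 6 of 12, among them without A-59 replicate 1 (0.0589) or either parental replicate (0.0422 and 0.0593) and in a fit of only the libraries compared (0.0653). Ndufaf4 was called in all 12. In B-20, Cox7a2l alone was called at 6 h, higher by 0.49 (adjusted p = 0.000639, and 0.0117 without parental 6 h replicate 2), beside 6.23% of all genes higher and 8% lower.

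Cox7a2l had CPM values of 28.0 and 27.5 in parental cells at 6 h, 36.3 and 33.8 in A-59, and 38.2 and 39.5 in B-20. Both clones lay above the parental libraries without overlap. At 0 h the same gene was at 32.2 and 33.8 in parental cells, 38.9 and 36.9 in A-59, and 41.2 and 39.4 in B-20, again without overlap, although no member was called at that time. Of its 50-base windows, 46.8% occur elsewhere.

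At 18 h, A-59 was below parental cells in 4 nuclear members and above in none, beside 5.68% of all genes called lower and 4.75% higher. They were Ndufa5, an accessory subunit of complex I (-0.57, adjusted p = 0.00178), Ndufa4 of complex IV (-0.56, adjusted p = 0.0012), Sdhb, the iron-sulfur subunit of complex II (-0.47, adjusted p = 0.00255), and Atp5f1b, the catalytic subunit of the ATP synthase (-0.38, adjusted p = 0.00158). The median over 90 nuclear members was -0.19, with 79 of 90 below 0, and the mitochondrial median was 0.01. The share of nuclear members called lower was thus close to that of all genes. All 4 calls were lost without A-59 18 h replicate 1 and also without parental 18 h replicate 2, where 0 nuclear members were called.

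In B-20 at 18 h, Sdhb was called lower again (-0.39, adjusted p = 0.00836), as the only nuclear member, and mt-Nd4, a membrane-arm subunit of complex I, was lower by -0.51 ± 0.113 (adjusted p = 0.0026). Here 8.55% of all genes were called lower and 5.7% higher, and the medians were 0.01 for nuclear and -0.33 for mitochondrial members. Sdhb stood at 104 and 111 CPM in parental cells at 18 h, 72.8 and 82.4 in A-59, and 80.1 and 84.6 in B-20, so both clones lay below without overlap. mt-Nd4 stood at 1002 and 921 CPM in parental cells, 981 and 953 in A-59, and 595 and 757 in B-20. The B-20 call of Sdhb was lost when any 1 of the 4 libraries compared was left out, with adjusted p from 0.0228 to 0.105, and that of mt-Nd4 without either parental replicate or without B-20 replicate 1, with adjusted p from 0.0111 to 0.0578. The mt-Nd4 call was also lost when the GC trend was removed (adjusted p = 0.112). Over all 6 clone comparisons, 9 members were called at least once, and Ndufaf4 was the only DEG among them. Each single comparison called between 9.56 and 22.7% of all genes in either direction. The share of all genes called at least once was not counted.

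**Figure D3:**
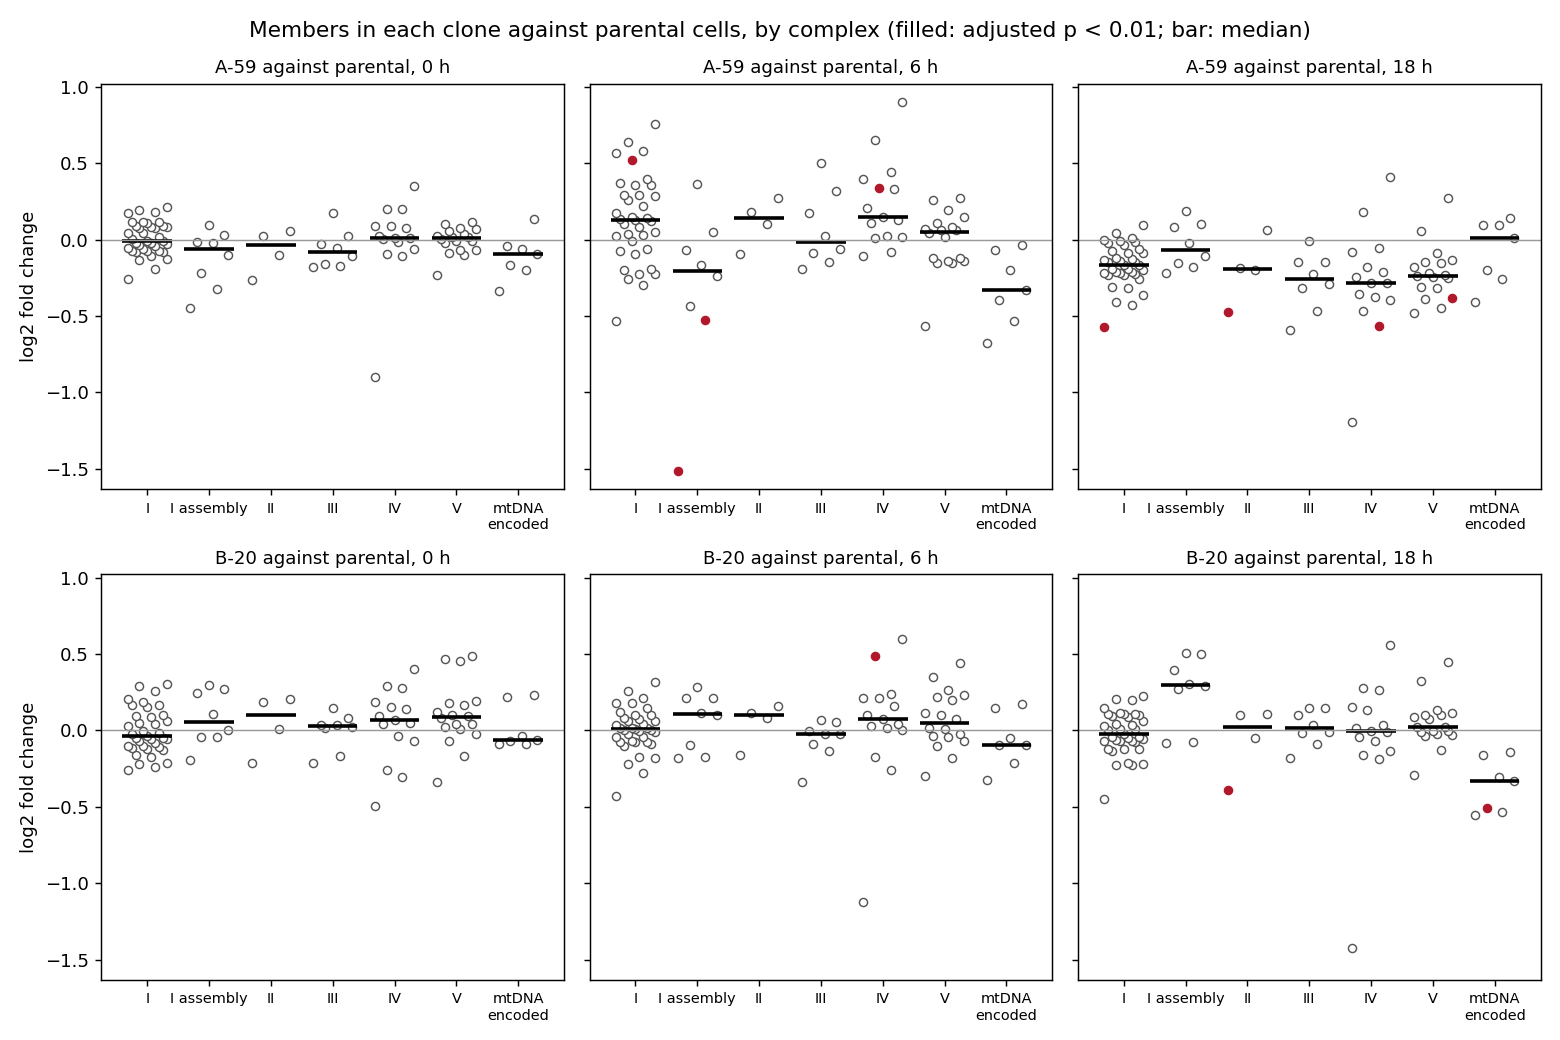
Each point is the log2 fold change of 1 tested member for 1 clone against parental cells at 1 time, grouped by complex; filled points were called and bars are medians of a class. Nearly all points lie between -1 and 1, and Ndufaf4 at 6 h in A-59, at -1.51, is the member farthest from 0 among those called.

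The response to antigen receptor stimulation was compared within each genotype. After 6 h few of these genes differed from 0 h. In parental cells no member was called (7 nuclear and 0 mitochondrial at an unadjusted p under 0.05, and 0 by DESeq2), with medians of 0.05 and 0.09, beside 3.1% of all genes higher and 4.24% lower. In B-20 none was called either (1 and 0 at an unadjusted p under 0.05, 0 by DESeq2), beside 0.411% higher and 0.875% lower. Of all 15318 genes, 3757 in parental cells and 2276 in B-20 had an unadjusted p under 0.05. In A-59 Ndufaf4 was lower by -1.04 ± 0.236 (adjusted p = 0.00894), beside 2.45% of all genes higher, 3.69% lower and 1.39% DEGs. The medians in A-59 were 0.13 for nuclear and -0.14 for mitochondrial members, and the Ndufaf4 call was lost without 0 h replicate 2 (adjusted p = 0.119) or 6 h replicate 1 (adjusted p = 0.147). Without A-59 6 h replicate 2 as many as 26 nuclear and 4 mitochondrial members were called, against 0 and 0 without replicate 1.

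After 18 h more members were called, nearly all nuclear and nearly all lower. In parental cells 9 of 90 nuclear members were lower and 1 higher, beside 16.2% of all genes lower, 16.4% higher and 10.3% DEGs. In A-59, 21 were lower and 0 higher, beside 17.1% lower, 14.7% higher and 8.76% DEGs. In B-20, 7 were lower and 2 higher, beside 11.4% lower, 11.4% higher and 4.8% DEGs. Called lower were thus 10% of nuclear members for the parental line, 23.3% for A-59 and 7.78% for B-20. The nuclear medians were -0.08, -0.25 and -0.14, with 60, 81 and 66 of 90 members below 0, while the median of all tested genes stayed within 0.05 of 0. These comparisons share no libraries across genotypes, but they share 1 estimate of the spread and each rests on 2 libraries per time. Leaving out 1 of them gave 3 to 6 calls for the parental line, 7 to 18 for A-59 and 2 to 10 for B-20.

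By class, the assembly factors of complex I had the lowest median in parental and B-20 cells, and complex III in A-59. Of 8 assembly factors, 4 were called lower at 18 h in the parental line, 3 in A-59 and 2 in B-20. All 8 had log2 fold changes below 0 in each genotype, with medians of -0.57, -0.44 and -0.34. Of 37 complex I subunits, 3 were called lower in parental cells (median -0.03), 9 in clone A-59 (-0.21) and 4 in clone B-20 (-0.07), where Ndufv3 was called higher. Of 8 complex III genes, 1, 2 and 0 were called lower, with medians of -0.26, -0.49 and -0.17. In complex IV only Ndufa4 was called lower, in A-59, out of 15. In complex V, 1, 5 and 1 of 18 were called lower, with medians of -0.09, -0.34 and -0.14, and in complex II Sdhb alone, in A-59 (adjusted p = 0.009, lost in 6 of 12 alternatives, with adjusted p up to 0.122).

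**Figure D4:**
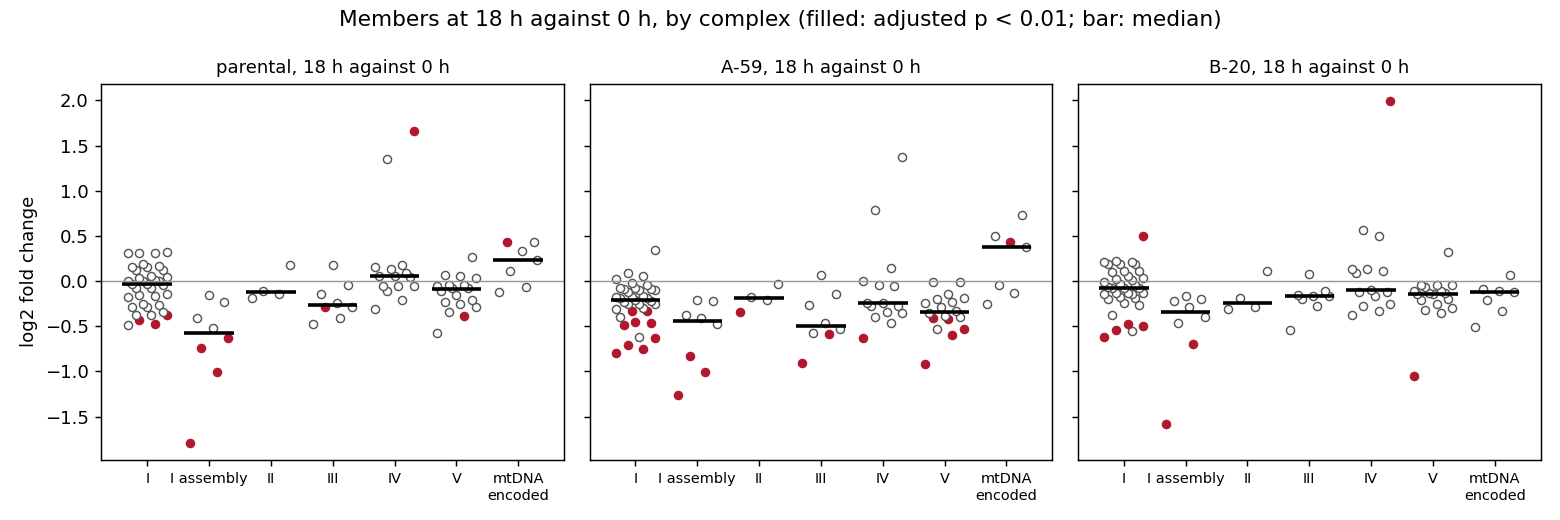
Each point is the log2 fold change of 1 tested member at 18 h against 0 h for parental, A-59 and B-20 cells, grouped by complex; filled points were called and bars are medians of a class. The complex I assembly factors lie below 0 in all panels, with Ndufaf4 lowest, while mitochondrial genes lie on both sides of 0.

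At 18 h, 24 of the 90 nuclear members tested were called lower in at least 1 genotype, a count not taken over all genes. Ndufaf4, Ndufaf6, Ndufs1 and Ndufa12 were called lower in all 3. These are 4 of 90 members, a smaller share than the 1409 of all 15318 tested genes called lower in all 3. Ndufaf4 had the largest change of the 4 members. Its CPM values in parental cells were 31.9 and 35.7 before stimulation, 34.3 and 34.5 after 6 h, and 9.19 and 10.2 after 18 h. In A-59 they were 20.6 and 29.3, then 9.35 and 15.2, and then 9.59 and 11.1. In B-20 they were 40.1 and 42.8, then 31.3 and 29.9, and then 10.2 and 17.7. All genotypes thus reached a like level at 18 h, and A-59 had already come near it at 6 h. At 18 h the log2 fold changes were -1.79 ± 0.246 (SE) in parental cells (adjusted p = 2.57e-05), -1.26 ± 0.242 in A-59 (adjusted p = 0.000569, and 0.0109 without 18 h replicate 1) and -1.58 ± 0.229 in B-20 (adjusted p = 8.46e-05). The earlier fall in A-59 was not called as a difference between responses, with a log2 difference of -1.07 and an adjusted p of 0.118.

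In parental cells Ndufaf6 went from 14.4 and 13.1 CPM at 0 h to 6.87 and 6.85 at 18 h. It was at 12.7 and 10.9 and then 5.61 and 6.21 in A-59, and at 14.4 and 12.4 and then 7.71 and 8.80 in B-20. The times did not overlap in any genotype, and the log2 fold changes were -1.01 (adjusted p = 1.65e-05), -1.005 (adjusted p = 1.98e-05) and -0.70 (adjusted p = 0.000681). The B-20 call was lost without 0 h replicate 1 (adjusted p = 0.0118) or 18 h replicate 1 (adjusted p = 0.0143). Of the other assembly factors, Ndufaf2 was called in parental cells (-0.74, adjusted p = 0.00313) and A-59 (-0.83, adjusted p = 0.00126), and Ndufaf7, a methyltransferase, in parental cells (-0.62, adjusted p = 0.00233). Ndufaf1, Ndufaf3, Ndufaf5 and Ndufaf8 were not called, with values between -0.51 and -0.15.

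Ndufs1, the largest iron-sulfur subunit of the electron input module of complex I, went from 151 and 138 CPM at 0 h to 116 and 107 at 18 h in parental cells. In A-59 it was at 129.5 and 134 and then 92.8 and 99.7, and in B-20 at 169 and 165 and then 109.5 and 130.2. Its fall was modest and alike in size, -0.38 (adjusted p = 0.00202), -0.46 (adjusted p = 0.000426) and -0.48 (adjusted p = 0.000385). Ndufa12, an accessory subunit of the same module, was lower by -0.47 (adjusted p = 0.0031), -0.79 (adjusted p = 2.44e-05) and -0.62 (adjusted p = 0.000374).

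In complex V, Atp5f1b went from 1881 and 1817 CPM at 0 h to 1399.9 and 1439 at 18 h in parental cells, from 1605 and 1545 to 1054 and 1127 in A-59, and from 1845 and 1876 to 1482 and 1634 in B-20. It was called in parental cells (-0.38, adjusted p = 0.000526) and A-59 (-0.53, adjusted p = 2.12e-05) and missed the threshold in B-20 (-0.26, adjusted p = 0.0146). Atp5mc1, which encodes the c-ring subunit, was at 14.9 and 13.3 CPM and then 10.8 and 8.45 in parental cells, 14.1 and 16.4 and then 7.28 and 8.80 in A-59, and 19.4 and 19.7 and then 8.03 and 10.9 in B-20. The times did not overlap in any genotype. Its log2 fold change was -1.05 ± 0.187 in B-20, a DEG (adjusted p = 0.00028), -0.92 in A-59 (adjusted p = 0.000888) and -0.57 in parental cells (adjusted p = 0.0229, not called). The A-59 call was lost without 0 h replicate 2 (adjusted p = 0.0105) or 18 h replicate 1 (adjusted p = 0.0228). Atp5if1, the inhibitor of the ATP synthase, was not called at 18 h, with 0.27 (parental), -0.14 (A-59) and 0.32 (B-20).

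The highly expressed subunits of the remaining complexes moved little at 18 h. Cox4i1 of complex IV was not called, with 0.05, -0.06 and 0.14 and adjusted p of at least 0.541. Sdha, the flavoprotein of complex II, had -0.10, -0.20 and -0.19 with adjusted p of at least 0.0779. Uqcrc2, a core protein of complex III, was called in parental cells alone (-0.29, adjusted p = 0.0062), with -0.26 in A-59 (adjusted p = 0.0116) and -0.27 in B-20 (adjusted p = 0.0113), and the parental call was lost when any 1 of its 4 libraries was left out (adjusted p from 0.0304 to 0.0462). Uqcr11, a small subunit of complex III, had -0.14, -0.58 and -0.11 and was not called.

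Few members were called higher. Ndufv3, an accessory subunit of complex I, was called higher in B-20 (0.50, adjusted p = 0.00903), beside 0.31 in parental cells and 0.34 in A-59 (adjusted p = 0.0731 and 0.048). The remaining nuclear pair was near the limit of detection. Ndufa4l2 rose in parental cells from 0.51 and 0.41 CPM to 1.16 and 1.71, a log2 fold change of 1.66 (adjusted p = 0.00325), with 2 to 33 counts per library over the series, and it overlaps Shmt2. Cox6a2 rose in B-20 from 0.33 and 0.37 CPM to 1.99 and 0.86, a log2 fold change of 2.00 (adjusted p = 0.00418), with 3 to 56 counts per library, and it overlaps Itgad. The calls were lost when single libraries were left out, for Ndufa4l2 without either 0 h replicate (adjusted p = 0.0191 and 0.0299) or 18 h replicate 2 (0.0932), and for Cox6a2 without either 0 h replicate (0.0406 and 0.0349) or 18 h replicate 1 (0.102). The libraries did not mark strand, so reads from overlapping neighbours cannot be told apart.

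**Figure D5:**
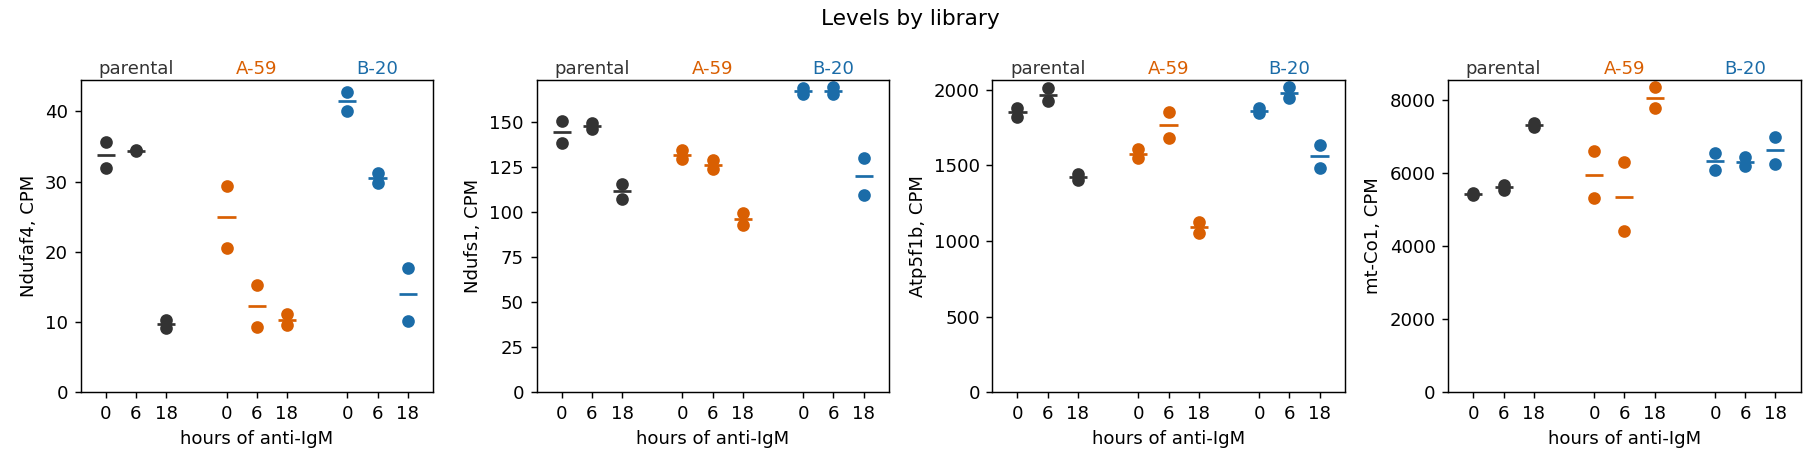
CPM by library, with bars for the means of 2, for Ndufaf4, Ndufs1, Atp5f1b and mt-Co1 in parental, A-59 and B-20 cells at 0, 6 and 18 h. Ndufaf4 falls from 20.6 to 42.8 CPM at 0 h to 9.19 to 17.7 at 18 h, while mt-Co1 is higher at 18 h than at 0 h without overlap in parental cells and A-59.

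Promoters were read from RefSeq (GRCm38.p6), as 250 bases before to 50 after each transcription start, for the members that changed most. They were searched on both strands for the E-box CACGTG, which is palindromic and is bound by TFEB among other factors, for a core of the site of NRF1 (GCGCATGCG), a regulator of nuclear genes for mitochondrial proteins, and for the ETS core CCGGAAG, which GABP binds. Ndufaf4 (chr4:24897833-24898132, + strand), Atp5mc1 (listed as Atp5g1, chr11:96075582-96075881, - strand) and Ndufa12 (chr10:94198785-94199084, + strand) are shown because they were lower at 18 h in at least 2 genotypes and differ in these letters. No entry was found for Ndufs1 and Ndufaf6. Capitals mark the matches, an NRF1 core in Ndufaf4 that matches on the forward strand at -113 and on the reverse strand at -112, overlapping, and an E-box at -44 in Atp5mc1. Ndufa12 has no match.
Ndufaf4: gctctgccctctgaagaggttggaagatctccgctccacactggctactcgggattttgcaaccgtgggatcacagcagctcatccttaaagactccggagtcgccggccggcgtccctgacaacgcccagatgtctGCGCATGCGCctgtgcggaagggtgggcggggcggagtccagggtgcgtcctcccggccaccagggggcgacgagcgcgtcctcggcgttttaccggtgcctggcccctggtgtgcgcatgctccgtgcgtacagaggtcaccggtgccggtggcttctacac
Atp5mc1: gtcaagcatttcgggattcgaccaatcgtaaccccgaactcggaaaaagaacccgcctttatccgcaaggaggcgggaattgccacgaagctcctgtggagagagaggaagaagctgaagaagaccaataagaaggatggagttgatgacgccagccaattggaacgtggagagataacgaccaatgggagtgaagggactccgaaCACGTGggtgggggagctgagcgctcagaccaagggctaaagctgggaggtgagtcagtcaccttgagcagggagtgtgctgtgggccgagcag
Ndufa12: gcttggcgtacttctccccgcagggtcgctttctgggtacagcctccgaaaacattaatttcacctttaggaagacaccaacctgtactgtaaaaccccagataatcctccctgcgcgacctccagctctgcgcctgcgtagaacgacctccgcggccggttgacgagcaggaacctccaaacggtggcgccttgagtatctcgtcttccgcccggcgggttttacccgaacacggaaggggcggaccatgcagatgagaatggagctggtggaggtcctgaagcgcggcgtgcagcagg

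Of the 98 nuclear members, 77 had a promoter entry, with 82 promoters in all. The NRF1 core was present in 12.2% of them against 1.75% of all 32851 promoters, the ETS core in 22% against 8.86%, and the E-box in 8.54% against 7.15%. Between members called lower at 18 h in at least 1 genotype (20 promoters) and the other tested members (58 promoters), the shares were 10 and 13.8% for the NRF1 core, 20 and 24.1% for the ETS core, and 15 and 6.9% for the E-box, where 15% is 3 promoters. These are matches of letters, given as a description, and no match says only that the letters are not in this window.

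The mitochondrial genes did not move as a block at 18 h, although their mRNAs come from shared precursor transcripts. mt-Co1 went from 5389 and 5458 CPM at 0 h to 7261 and 7361 at 18 h in parental cells, a log2 fold change of 0.43 ± 0.125 (adjusted p = 0.00929). In A-59 it was at 5308 and 6603 and then 8349 and 7786 (0.44, adjusted p = 0.00855), and in B-20 at 6562 and 6084 and then 6251 and 6983 (0.07, adjusted p = 0.725). Of the 7, mt-Co1 alone was called in a time comparison. Both calls lay near the threshold. The parental call was lost when any parental library of this comparison was left out. Its log2 fold change stayed between 0.36 and 0.45 over 12 alternatives. The A-59 call was lost without 0 h replicate 1, 18 h replicate 1 or 18 h replicate 2. There the log2 fold change ran from 0.29 to 0.60 over the 12 alternatives. The difference in response between B-20 and parental cells was not called for mt-Co1 (log2 difference -0.36, adjusted p = 0.379).

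None of the other 6 was called at 18 h, and the values of mt-Nd6 carry the strand limit given above. In parental cells the log2 fold changes were 0.43 for mt-Nd6, 0.33 for mt-Nd4, 0.24 for mt-Nd5, 0.11 for mt-Cytb, -0.07 for mt-Nd2 and -0.12 for mt-Nd1. In A-59 they were 0.73 for mt-Nd6, 0.50 for mt-Nd5, 0.38 for mt-Nd4, -0.05 for mt-Cytb, -0.14 for mt-Nd2 and -0.25 for mt-Nd1. In B-20 they lay between -0.51 for mt-Nd1 (adjusted p = 0.0131) and -0.08 for mt-Nd6. The medians of the 7 were 0.24, 0.38 and -0.12. The positive medians rested in part on mt-Co1 and mt-Nd4, which have over 50% of their windows elsewhere. Over the 5 genes with under 20%, chosen after the values were seen, the medians were 0.11, -0.05 and -0.20. These 5 were split in A-59, where mt-Nd6 and mt-Nd5 lay above 0 and mt-Cytb, mt-Nd2 and mt-Nd1 below.

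Whether the response differed between genotypes was tested as such. No member was called in any of the 4 comparisons of a clone's response with that of parental cells, by edgeR or DESeq2. In A-59, 6 nuclear members at 6 h and 6 at 18 h had an unadjusted p under 0.05, and 0 mitochondrial members at either time, beside 0.646 and 0.0392% of all genes called. In B-20, 0 and 2 nuclear and 0 and 1 mitochondrial members had an unadjusted p under 0.05, beside 0.183 and 0.222% called. The medians of the difference at 18 h were -0.20 (nuclear) and 0.01 (mitochondrial) in A-59 and 0.00 and -0.39 in B-20. Calls were so rare over all genes that the absence of calls among 97 members cannot be read as an absence of differences.

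The clones also differed from each other. At 0 h no member was called between B-20 and A-59 by edgeR (11 nuclear members at an unadjusted p under 0.05, 3 called by DESeq2), beside 8.41% of all genes. At 6 h, 5 nuclear members were higher in B-20, beside 18.7% of genes called in either direction, among them Ndufaf4 by 1.34 (adjusted p = 0.000578, and 0.0204 without A-59 6 h replicate 1). At 18 h, 4 nuclear members were higher and mt-Nd4 was lower in B-20, beside 16.2%. Ndufa4 and Atp5mc3, a c-ring gene, were among the 4 at 18 h. Over 12 alternatives the call was lost in 5 for mt-Nd4 (adjusted p up to 0.0698), in 4 for Atp5mc3 (up to 0.154) and in 3 for Ndufa4 (up to 0.059). Log2 fold changes of all genes between the clones were lower with higher GC content at 0 h (rho -0.40) and 6 h (rho -0.45).

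The nuclear machinery that expresses the mitochondrial genome was described from lists drawn up with earlier results of these data known. For these counts at 18 h, 16.2% of all genes were called lower in parental cells, 17.1% in clone A-59 and 11.4% in clone B-20. Of 77 mitochondrial ribosomal proteins, 45 (parental), 49 (A-59) and 24 (B-20) were called lower, with medians of -0.44, -0.52 and -0.30, and 1 was called higher in each. Of 22 genes of mitochondrial RNA processing and stability, 14 were called lower and 0 higher in each genotype, with medians of -0.70, -0.46 and -0.55. Lrpprc, which stabilises mitochondrial mRNAs, went from 121 and 119 CPM at 0 h to 67.9 and 66.5 at 18 h in parental cells, with log2 fold changes of -0.84, -0.45 and -0.72, all called. Of 46 assembly factors with other name prefixes, 17, 19 and 10 were called lower and 4, 4 and 1 higher. Of 23 genes of mitochondrial DNA transcription and maintenance, 8, 9 and 7 were called lower and 4, 4 and 2 higher. In this last list Tfam, which packages and transcribes mitochondrial DNA, was not called (-0.23, -0.22 and -0.15), and Polrmt, the RNA polymerase, was called in parental cells alone (-0.44, adjusted p = 0.00294, beside -0.29 and -0.23).

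Of 14 genes for electron carriers, cytochrome c and coenzyme Q, 6, 6 and 3 were called lower and 2, 1 and 2 higher at 18 h, beside the same shares of all genes. Coq8a, which acts in coenzyme Q synthesis, was called higher in all 3 genotypes, and Coq10a, chosen after its values were seen, in parental cells and B-20. Coq8a went from 15.8 and 18.9 CPM at 0 h to 53.1 and 59.7 at 18 h in parental cells, from 10.3 and 10.9 to 27.8 and 27.2 in A-59, and from 8.17 and 12.4 to 22.1 and 19.4 in B-20. It rose in each genotype (1.70, 1.38 and 1.01), and both clones lay below parental cells at every time without overlap. At 18 h it was a DEG in both clones, lower by -1.04 (adjusted p = 4.89e-05) in A-59 and -1.44 (adjusted p = 6.55e-07) in B-20. Cycs, cytochrome c, was counted at only 0.42 to 1.97 CPM. The search for windows elsewhere covered members only, so whether repeated sequence lowers this level is not known, and it is no statement about expression.

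Of 15 nuclear regulators of mitochondrial genes tested, a list that holds Tfeb itself, 4, 4 and 2 were called lower at 18 h and 1, 2 and 0 higher, again beside 16.2, 17.1 and 11.4% of all genes lower. Pprc1, a coactivator of such genes, fell from 160 and 173 CPM to 45.6 and 41.5 in parental cells, from 137 and 145 to 37.2 and 47.8 in A-59, and from 147 and 174 to 55.4 and 93.6 in B-20. Its log2 fold changes were -1.94 (adjusted p = 5.4e-07), -1.74 (adjusted p = 1.81e-06) and -1.11 (adjusted p = 0.000176). Ppargc1b, a related coactivator, fell by 1.40, 1.18 and 0.94 on the log2 scale, all called, and Myc by 2.48 in parental cells and 1.92 in A-59, with -1.16 in B-20 not called (adjusted p = 0.017). Nrf1 and Gabpa, factors whose sites were searched above, were not called at 18 h, with values between -0.27 and 0.12.

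Between A-59 and parental cells at 6 h, 4 of 14 regulators other than Tfeb, whose fall the knockout fixes, were called lower and 2 higher, and 9 of 22 genes of RNA processing lower and 0 higher, beside the 11.3% of all genes lower given above. Without A-59 6 h replicate 1 the regulators called were 1 lower and 1 higher and those of RNA processing 4 lower. Without replicate 2 they were 3 lower and 3 higher, and 8 lower. Leaving out a parental replicate gave 2 and 1 regulators lower, and 3 and 5 genes of RNA processing. Pprc1 was at 86.5 and 75.2 CPM in A-59 against 144 and 142 in parental cells (-0.82, adjusted p = 0.00188), Ppargc1b was lower by -1.13 (adjusted p = 0.00134) and Myc by -1.62 (adjusted p = 0.00311). Without single libraries of this comparison the adjusted p ran to 0.0441 for Pprc1, 0.0311 for Ppargc1b and 0.0332 for Myc, so these calls were lost. In B-20 at 6 h none of these was called (-0.21, -0.47 and -0.81). Ppargc1a, the best known coactivator of this family, was scarce, with 15 and 18 counts in the parental 6 h libraries and at most 5 elsewhere. It had 0 counts in both A-59 6 h libraries, at least 9.99-fold lower against a floor of 3 counts over the group (adjusted p = 0.000531, and at most 0.00931 without any 1 library), and 1 count in B-20, a ratio of parental to clone of 24.8 with a 95% counting interval from 4.16 to 1010 (adjusted p = 0.00331).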

How the data were processed

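The authors sequenced unstranded, poly(A)-selected RNA as 50-base single reads, aligned it with STAR 2.5 and counted reads per gene with featureCounts 1.5.0-p1 on GRCm38 (Ensembl release 100), after bcl2fastq 2.20.0.422, the versions per the submitters' processing notes and the rest per the study's methods, which name another bcl2fastq version. The deposited values are raw counts per gene, 1 table per library, with no normalization. Library totals had a median of 19846544 counts, and intervals cover counting error only, since copies of a molecule made by PCR were not marked.

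Ensembl IDs were matched to symbols (93.2% of genes, 99.6% of counts). Counts were scaled by TMM, filtered with filterByExpr and fitted in edgeR 4.0.16 (R 4.3.3; robust quasi-likelihood, 9 group means, all 18 libraries), with Benjamini-Hochberg adjustment over 15318 genes per comparison. All groups shared 1 estimate of the spread, with a median biological coefficient of variation of 9.27% over all tested genes, 9.21% for nuclear and 11.1% for mitochondrial members. For the A-59 6 h response this fit called 941 of 15318 genes, while a fit of only the libraries compared called 49 of 14072. CPM values are TMM-scaled, and SE is that of the log2 fold change. Replicates differed beyond sampling noise in every group, so none was a duplicate. On simulated counts for A-59 against parental cells at 0 h (14838 genes, 200 changed by a log2 of 2), edgeR called 192 of the changed genes and 1 other, and DESeq2 1.42.0 called 178 and 1. A log2 of 2 exceeds nearly all changes of members given here. The simulation therefore does not show how many smaller changes would be called, nor how the 6 h groups behave.

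Members, lists and tests were chosen with earlier results of these data known. Genes were named by a rule that took Tfeb, the mitochondrial genes, DEGs, the nuclear subunit with the highest level and the member with the largest mean clone difference per complex, isoform groups, and related genes that were DEGs in both clones or at 18 h in all genotypes, and a fixed set of regulators. Ndufs1, Ndufa12, Ndufv3, Ndufaf2, Ndufaf7 and Ndufb1 were named after their values were seen, as were other called members. Alternatives were DESeq2, its size factors, mitochondrial genes left out of the scaling (every count of members called within 1.5 times), a protein-coding denominator for shares, other count filters, only the libraries compared, a replicate block, a GC offset, leaving out each library, and, added after the data were seen, only members with under 20% of 50-base windows elsewhere, shares without mt-Co1, and related lists without single libraries. 1 gene that the naming rule picked is not reported here.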

Additional observations from a re-analysis of the deposited data

Results flagged for a closer look

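The share of counts on the mitochondrial ribosomal RNAs mt-Rnr1 and mt-Rnr2, which the comparisons above do not use, exceeded the highest parental value of 0.0839% in 4 libraries. It was 0.464% in B-20 6 h replicate 2, 0.106% in B-20 6 h replicate 1, 0.101% in A-59 18 h replicate 2 and 0.0949% in B-20 0 h replicate 1. B-20 6 h replicate 2, with 58141 counts on mt-Rnr2, stood far above the other 17 libraries, while its share on the 13 mitochondrial protein genes, 1.71%, lay within the range of the other B-20 libraries. Poly(A) selection removes most ribosomal RNA, and the part of selection in these values was not tested. With 2 libraries a group, no value could be tested as standing apart within its group.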

How the results depend on the processing

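Counts over all genes also moved with the settings. For the parental 18 h response 4991 of 15318 genes were called in the main fit and 5158 of 33978 with no filter beyond 1 count. The GC offset gave 5548 of 15318, and the fit of only the libraries compared 6283 of 14188. For A-59 against parental cells at 6 h the numbers called were 3473, 3800, 3820 and 1610 in the same order. No such count was taken with a library left out. Counts below are of members called, nuclear unless said to be mitochondrial. With no filter beyond 1 count, A-59 against parental cells gave 11 (mitochondrial 1) at 6 h and 8 at 18 h, B-20 against parental 3 at 18 h, the 18 h response 20 in parental cells and 32 (mitochondrial 3) in A-59, mitochondrial 1 in B-20, the A-59 6 h response 4, its difference from the parental response 1, and B-20 against A-59 1, 21 (mitochondrial 1) and 14 at 0, 6 and 18 h. In fits of only the libraries compared, A-59 against parental cells gave 1 at 6 h and 11 (mitochondrial 1) at 18 h, B-20 against parental 2 (mitochondrial 3) at 6 h and mitochondrial 2 at 18 h, parental responses 3 (mitochondrial 1) at 6 h and 35 (mitochondrial 4) at 18 h, A-59 responses 0 at 6 h and mitochondrial 4 at 18 h, B-20 mitochondrial 1 at 18 h, and B-20 against A-59 1, 1 and 2 (mitochondrial 2). With the GC offset, B-20 against parental cells gave 2, 2 (mitochondrial 3) and 3, the 18 h responses 17 in parental cells, 18 in B-20 and mitochondrial 2 in A-59, and B-20 against A-59 1, 9 (mitochondrial 2) and 9 (mitochondrial 3). At 6 h in that last comparison mt-Cytb (-0.41) and mt-Nd5 (-0.48) changed sign and were called. DESeq2 gave 3 and mitochondrial 1 for B-20 against A-59 at 0 and 6 h, and for the 18 h response mitochondrial 2 in A-59 and 1 in B-20. DESeq2 size factors and a minimum of 10 counts in every library each gave mitochondrial 2 for the A-59 18 h response. The cause of these shifts was not tested.

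Leaving out 1 library gave 1 to 27 calls for A-59 against parental at 6 h (mitochondrial 0 to 4) and 0 to 7 at 18 h, 0 to 2 and 0 for B-20 at 6 and 18 h (mitochondrial 0 to 1 at 18 h), 0 to 26 for the A-59 6 h response (mitochondrial 0 to 4), 3 to 6, 7 to 18 and 2 to 10 for the 18 h responses of parental cells, A-59 and B-20 (mitochondrial 0 and 0 to 2 in parental cells and A-59), 0 to 4 for the A-59 difference in response at 6 h (mitochondrial 0 to 2), and 2 to 25 and 1 to 6 for B-20 against A-59 at 6 and 18 h (mitochondrial 0 to 4 and 0 to 1). The highest values at 6 h all came without A-59 6 h replicate 2.

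The replicate numbers were not shown to pair the samples: deviations of same-numbered libraries correlated by -0.004 to 0.244 over 15 pairs of groups, above 0.1 in 6. With the replicate block, B-20 against A-59 at 0 h gave 3 calls and the A-59 18 h response mitochondrial 2, and the other counts stayed within 1.5 times. Under all 12 alternatives Ndufaf4 stayed called at 18 h in parental cells and B-20 and at 6 h in A-59 against parental cells (log2 from -1.88 to -1.18), and Ndufaf6 at 18 h in parental cells and A-59. The low counts of Cox6a2 and Ndufa4l2 limit both, and each lost its call in 4 of 11.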
